A study of Homo sapiens with 6 samples.

Results

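Amino acid transporters carry the building blocks of protein, glutathione and nucleotides across the plasma membrane and the lysosomal membrane. Some work as pairs, in which a heavy chain takes a light chain to the cell surface and the light chain exchanges an amino acid inside the cell for another outside. Others use the sodium or proton gradient to take amino acids up, and cells short of amino acids raise several of these genes through the transcription factor ATF4. The genes described here are the protein-coding genes whose symbol places them in the solute carrier families SLC1, SLC3, SLC6, SLC7, SLC36, SLC38 and SLC43. The rule used symbols and no measured value, and it took 59 of the 58735 genes counted. It also took a few carriers of related molecules, among them SLC6A8 for creatine, SLC6A6 for taurine and SLC43A3 for purine bases.

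RNA came from UE7T-9, a mesenchymal stem cell line from human bone marrow, kept in DMEM. Of the 6 libraries, 3 were control cells given as WT and 3 were from the SRRM4 KO line, made with CRISPR v2 in a lentivirus, puromycin selection and cloning from single cells. The KO line is therefore 1 clone, and the study describes its SRRM4 protein as reduced and the knockout as incomplete. With controls given as WT, effects of the gene, of the vector and selection, and of the clone cannot be told apart. Nothing in the labels says whether the libraries of a group came from separate cultures, so p-values measure only the spread between these libraries. SRRM4, which encodes a splicing factor of neuronal microexons, had 0 counts in each of the 6 libraries, so its mRNA could not serve as a check on the knockout. Library totals ran from 21496117 to 23868323 counts. Levels are in CPM (counts per 1e6 of the TMM-scaled total), and a gene at 0 in a library may have had up to 3 counts, which is 0.123 to 0.139 CPM. This limit covers counting error only. Of the surface markers of mesenchymal stem cells, NT5E (CD73) was at 342 and 490 CPM and ENG (CD105) at 246 and 194 CPM in control and KO. THY1 (CD90) was at 144 and 26.7 CPM and was called lower in KO. All 3 passed the adjusted p, and the rise of NT5E and the fall of ENG were under the fold threshold. At the protein level, the study's flow cytometry found CD73 and CD105 unaffected and little CD90. Of the blood cell and HLA class II markers that such cells lack, PTPRC, CD79A and HLA-DRA had at most 11 counts in a library, CD34 was at 3.69 and 3.63 CPM and CD14 at 16.8 and 15.9 CPM in control and KO. In control replicate 1, the library least like the others of its group, 22403 genes had a count, against 20613 and 20674.

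Of the 59 transporter genes, 48 had at least 1 count, and 29 had enough counts to be tested. To be called, a gene had to pass 0.05 in edgeR's quasi-likelihood test, adjusted by Benjamini-Hochberg over the 15341 genes tested, and to change more than 2-fold (a log2 fold change of KO over control beyond 1). Among the 29 tested transporter genes 2 were called higher in SRRM4 KO cells, 6.90% of them, where the share over all tested genes was 5.45%. Another 6 were called lower, 20.7% of them, where the share over all tested genes was 7.14%. The adjusted p alone was passed by 6 genes with higher values and 16 with lower values, 20.7% and 55.2% of those tested, beside shares of 20.7% and 20.9% over all tested genes. In 6 genes each KO library lay above each control library and in 17 each lay below, against 25.9% of all tested genes in each direction. The median log2 fold change was -0.43 over the tested transporter genes and -0.01 over all tested genes. The higher genes were SLC6A8 and SLC7A2, and the lower genes were SLC7A5, SLC7A7, SLC7A8, SLC7A11, SLC6A9 and SLC38A5. Of these lower genes 4 encode light chains. SLC7A2 passed the filter on low counts only through the KO libraries, where it is high, and SLC38A5 had a KO library with 7 counts and needed the control libraries to pass, and the counts called include both genes. In bulk RNA, fewer cells that express a gene and less of its RNA per cell cannot be told apart.

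**Figure D1:**
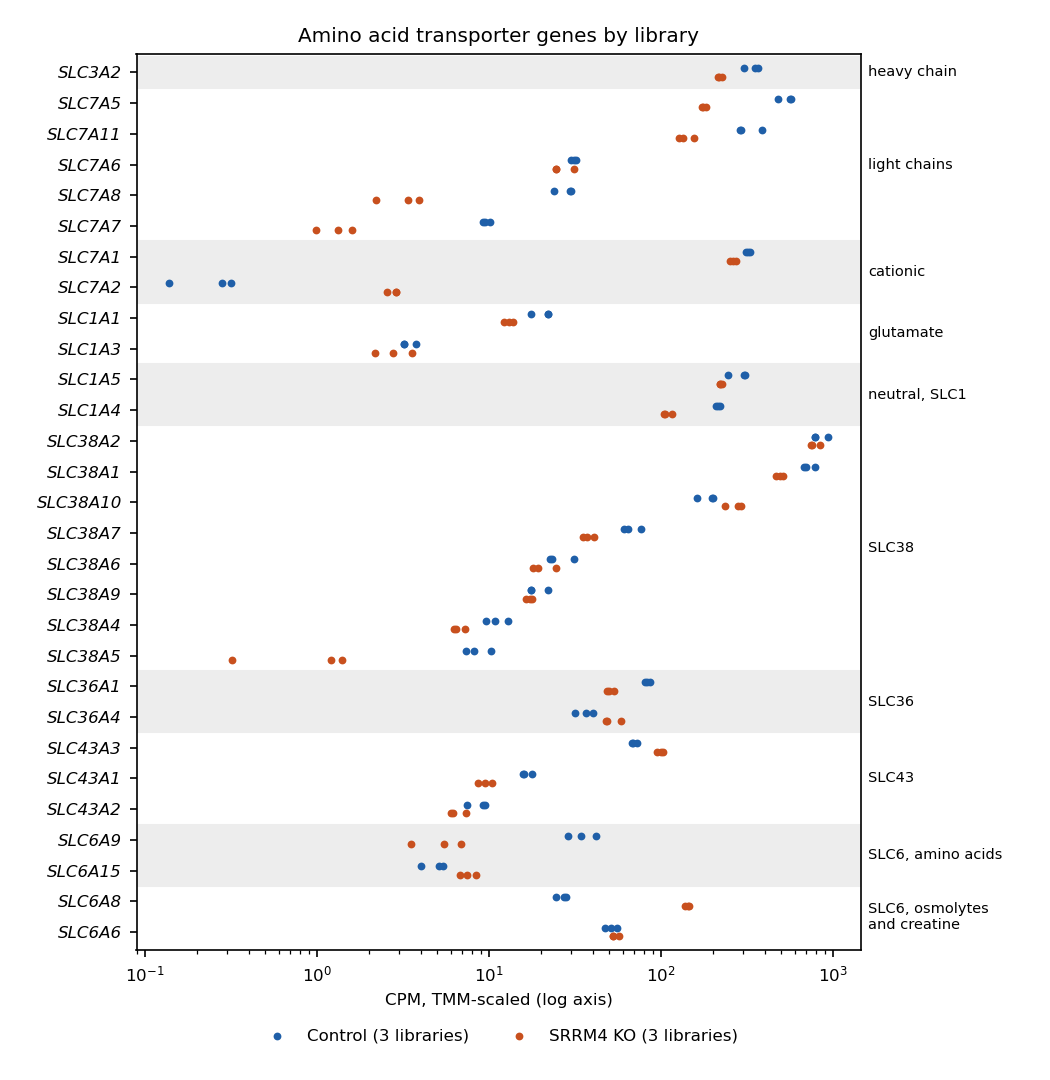
CPM of the 29 tested transporter genes in each library (horizontal log axis), grouped by role, with control libraries in blue and SRRM4 KO libraries in orange. The KO points lie to the left of the control points in 17 genes and to the right in 6, and the groups are widest apart for SLC7A2, SLC7A8, SLC38A5, SLC7A7, SLC6A9 and SLC6A8.

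To compare levels between genes, CPM were divided by the gene length in kilobases as the table gives it. Summed over the transporter genes this level was 686 ± 5.69 in control and 506 ± 6.17 CPM per kb in SRRM4 KO cells (SD, n = 3). The control libraries lay between 680 and 691 and the KO libraries between 499 and 510 CPM per kb, so the sums did not overlap. SLC38A2 had the highest level per length in both groups, 126 CPM per kb in control and 118 in KO. It made up 18.4% ± 2.09 of the sum in control and 23.4% ± 1.41 in KO (SD, n = 3). SLC7A5 was the next in control, at 16.5% ± 1.36 (SD, n = 3), and the fifth in KO, at 7.35% ± 0.201. SLC1A5, SLC38A1 and SLC3A2 filled the other high places in both groups, and SLC1A5 took 12.5% ± 1.41 of the sum in control and 13.2% ± 0.383 in KO (SD, n = 3), ranges that overlap. The 5 genes of highest level held 67.4% ± 0.641 of the sum in control and 62.0% ± 1.10 in KO (SD, n = 3), and the top 10 held 88.6% and 88.1%. SLC6A8 moved from place 17 to place 8, with 0.707% ± 0.0452 of the sum in control and 5.10% ± 0.187 in KO (SD, n = 3).

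**Figure D2:**
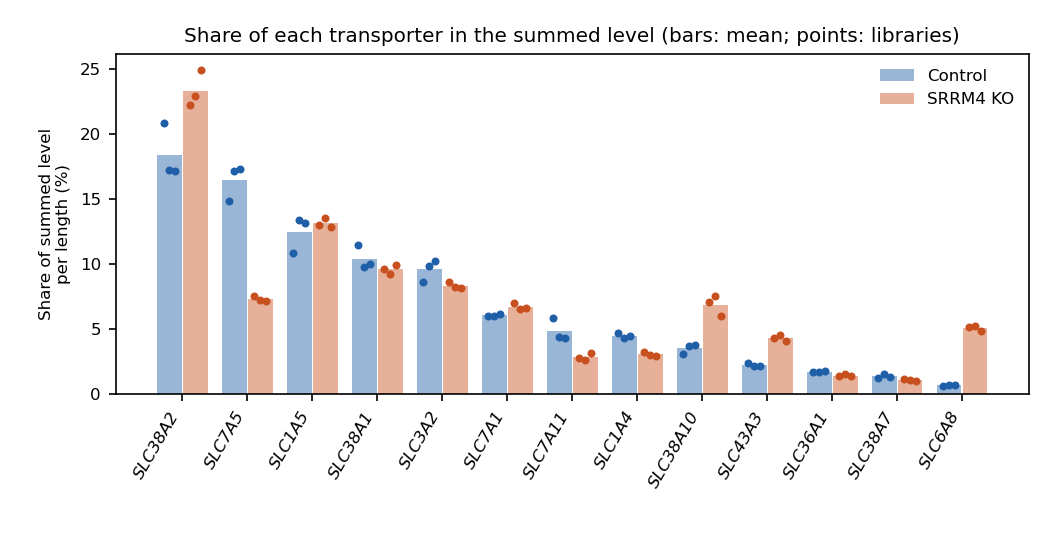
Share of each transporter gene in the summed level per length (CPM per kb, in percent) for the genes among the top 12 in either group. Bars are means of 3 libraries and points are libraries; SLC7A5 drops from 16.5% to 7.35% and SLC6A8 goes from 0.707% to 5.10%.

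The heavy chain SLC3A2 (4F2hc or CD98, ENSG00000168003; GRCh38 chromosome 11, 62856102 to 62888875) was at 304, 352 and 367 CPM in the control libraries and at 227, 213 and 217 CPM in the KO libraries. Each KO library lay below each control library. SLC3A2 had a log2 fold change of -0.64 (its standard error 0.0845, adjusted p = 2.08e-05), past the adjusted p and under the fold threshold. The other heavy chain, SLC3A1 (rBAT), had at most 2 counts in a library and was not tested.

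Of the 5 tested light chains, 4 were called lower, where the share over all tested genes was 7.14%. SLC7A5 (LAT1, ENSG00000103257; chromosome 16, 87830023 to 87869488), which brings in leucine and other large neutral amino acids, was at 480, 561 and 567 CPM in control and at 183, 172 and 174 CPM in KO. The groups were far apart and did not overlap. SLC7A5 fell by 1.60 on the log2 scale (standard error 0.0834, adjusted p = 1.06e-09), 3.04-fold in mean CPM. Its neighbourhood on chromosome 16 was lower too: among the 20 nearest tested genes the median was -0.40 and 2 lay above 0, and the chromosome's tested genes had a median of -0.28. The part of the neighbourhood in the fall of SLC7A5 was not tested.

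SLC7A11 (xCT, ENSG00000151012; chromosome 4, 138164097 to 138242349) takes up cystine for glutathione in exchange for glutamate. It was at 385, 290 and 289 CPM in control and at 135, 126 and 156 CPM in KO. Control replicate 1 was the highest library, and each KO library lay below all 3 control libraries. SLC7A11 fell by 1.21 on the log2 scale (standard error 0.115, adjusted p = 6.95e-07), and without control replicate 1 the value was -1.06. In a test against the 2-fold threshold itself it was not called (adjusted p = 0.163), while the other 7 called genes were.

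The light chains SLC7A8 and SLC7A7 were much less abundant and had larger fold changes. SLC7A8 (LAT2, ENSG00000092068; chromosome 14, 23125295 to 23183674), an exchanger of neutral amino acids, was at 23.8, 30.1 and 29.7 CPM in control and at 2.20, 3.37 and 3.91 CPM in KO. It fell by 3.14 on the log2 scale (standard error 0.191, adjusted p = 6.12e-09), 8.82-fold in mean CPM. SLC7A7 (y+LAT1, ENSG00000155465), an exporter of cationic amino acids, is on the same chromosome, between 22773222 and 22829820. Its libraries held 201, 203 and 225 counts in control and 22, 32 and 35 in KO, or 9.27, 9.42 and 10.1 CPM against 0.987, 1.31 and 1.59 CPM. It fell by 2.88 on the log2 scale (standard error 0.224, adjusted p = 8.29e-08). Neither gene's groups overlapped, and the tested genes around each had medians near 0, at -0.03 for SLC7A8 and 0.11 for SLC7A7. SLC7A6 (y+LAT2), the close relative of SLC7A7, was at 31.1, 31.9 and 29.8 CPM in control and at 31.1, 24.6 and 24.5 CPM in KO, with overlapping groups (log2 fold change -0.21, standard error 0.120, adjusted p = 0.177). It shares 3371 exon bases with SLC7A6OS on the other strand, whose reads cannot be told apart without strand. Of the other light chains SLC7A9 had at most 6 counts in a library, and SLC7A10 and SLC7A13 had 0 in each.

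Each light chain was also set against SLC3A2 as a ratio of levels per length. SLC7A5 stood at 1.72, 1.74 and 1.69 times the heavy chain in the control libraries and at 0.878, 0.880 and 0.878 times in the KO libraries. SLC7A11 stood at 0.679, 0.442 and 0.422 times in control and at 0.319, 0.318 and 0.388 times in KO. All light chains summed were at 2.39 ± 0.161 times the heavy chain in control and 1.32 ± 0.0377 times in KO (SD, n = 3). The ratio of SLC7A6 was 0.0623 ± 0.00724 in control and 0.0831 ± 0.00884 in KO (SD, n = 3), and the heavy chain, its divisor, was lower in KO, while SLC7A6 itself was at 30.9 ± 1.05 and 26.7 ± 3.75 CPM (SD, n = 3). The ratios of both groups were apart for each of these light chains, and with 3 libraries against 3 an exact permutation test cannot go below p = 0.10, so the ratios are given without a test.

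**Figure D3:**
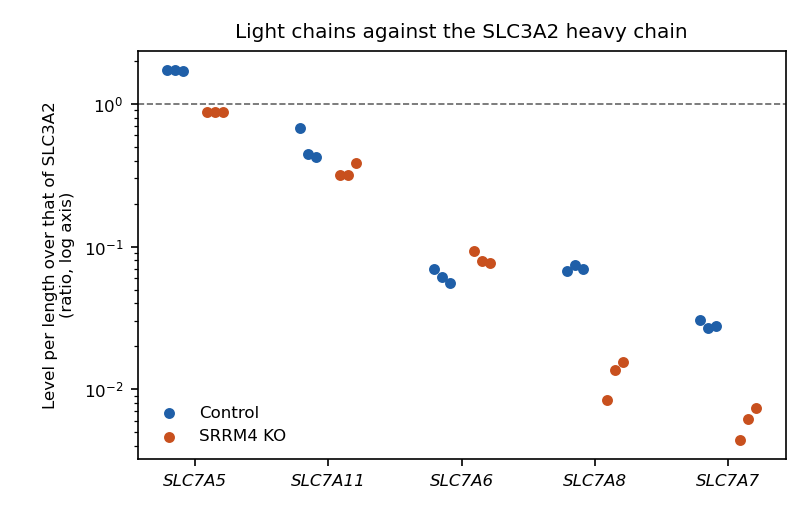
Level per length of 5 light chains divided by that of the heavy chain SLC3A2 in each library (vertical log axis), with control in blue and SRRM4 KO in orange. The KO ratios lie below the control ratios for SLC7A5, SLC7A11, SLC7A8 and SLC7A7 and above them for SLC7A6; the dashed line marks equal levels.

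Among the cationic amino acid transporters, SLC7A1 (CAT-1), the general carrier of arginine and lysine, was at 314, 320 and 327 CPM in control and at 274, 253 and 261 CPM in KO. The KO libraries lay below the control libraries, with a fitted log2 difference of -0.29 (standard error 0.0736, adjusted p = 0.00550). The tested genes around it on chromosome 13 had a median of -0.33. SLC7A2 (CAT-2, ENSG00000003989), which takes up arginine and can be induced in several cell types, is on chromosome 8, between 17497088 and 17570573. The control libraries held 3, 6 and 7 of its counts and the KO libraries 64, 62 and 63, or 0.243 ± 0.0927 and 2.76 ± 0.186 CPM (SD, n = 3). All 3 control libraries were near the detection limit and all 3 KO libraries well above it. In the fit SLC7A2 rose by 3.47 on the log2 scale (standard error 0.451, adjusted p = 1.82e-05), a size that rests on the few control counts, and with at least 10 counts asked of every library it was not tested. Per length it reached 0.349 CPM per kb in KO, against 34.1 for SLC7A1, so SLC7A1 had the far higher level of the pair in both groups. SLC7A14, a relative in the lysosome, had 17, 3 and 20 counts in control and 0 in each KO library, at least 4.62-fold lower against 3 counts per library, and was not tested. SLC7A4 and SLC7A3 had at most 4 and 2 counts in a library.

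The neutral exchangers of family 1 were both abundant and both lower. SLC1A5 (ASCT2), a major carrier of glutamine, was at 246, 307 and 304 CPM in control and at 220, 226 and 219 CPM in KO, with a fitted log2 difference of -0.36 (standard error 0.0900, adjusted p = 0.00425). SLC1A4 (ASCT1), a carrier of serine and alanine, was at 221, 208 and 215 CPM in control and at 116, 104 and 105 CPM in KO. Both genes kept their groups apart, and the gap was the wider for SLC1A4. Its fitted log2 difference of -0.99 (standard error 0.0817, adjusted p = 1.60e-07) sat just under the fold threshold and passed it in 5 of 15 alternative settings, at -1.02 with upper-quartile normalization. The tested genes around SLC1A4 on chromosome 2 had a median of -0.26. Of the glutamate transporters, SLC1A1 (EAAT3) was at 20.4 ± 2.54 CPM in control and 13.1 ± 0.803 CPM in KO (SD, n = 3), with a log2 fold change of -0.64 (adjusted p = 0.00149). SLC1A3 (EAAT1) was at 3.37 ± 0.315 and 2.83 ± 0.687 CPM (SD, n = 3), with overlapping groups (log2 fold change -0.25, adjusted p = 0.486). SLC1A7 and SLC1A2 had at most 15 and 4 counts in a library, and SLC1A6 had 0 in each.

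The sodium-coupled neutral amino acid transporters (SLC38) include the most abundant transporter gene of these cells, which did not pass the test. SLC38A2 (SNAT2), a system A carrier that cells raise when amino acids are short, was at 936, 785 and 784 CPM in control and at 747, 756 and 840 CPM in KO. The groups overlapped, with control replicate 1 the highest library (log2 fold change -0.10, standard error 0.0823, adjusted p = 0.377). With 1 library left out the SLC38A2 value ran from -0.161, without KO replicate 3, to -0.008, without control replicate 1. SLC38A1 (SNAT1), a second system A carrier and a supplier of glutamine, lies beside it on chromosome 12. It was at 782, 674 and 695 CPM in control and at 492, 464 and 510 CPM in KO. Its groups did not overlap, and KO was lower at a log2 value of -0.55 (standard error 0.0769, adjusted p = 3.49e-05). The less abundant SLC38A4, the third system A carrier, was at 11.1 ± 1.70 CPM in control and 6.64 ± 0.519 CPM in KO (SD, n = 3; log2 fold change -0.74, adjusted p = 0.00238). SLC38A5 (SNAT5, ENSG00000017483; chromosome X, 48458537 to 48470256), a system N carrier of glutamine, serine and glycine, had 160, 220 and 183 counts in control and 27, 34 and 7 in KO. These were 7.38, 10.2 and 8.20 CPM against 1.21, 1.40 and 0.318 CPM, with KO replicate 3 the lowest. SLC38A5 fell by 3.12 on the log2 scale (standard error 0.341, adjusted p = 3.06e-06), while 19 of the 20 tested genes around it had values above 0, with a median of 0.53. With at least 10 counts asked of every library SLC38A5 was not tested either. The other system N carrier, SLC38A3, had 4, 5 and 4 counts in control and 0 in each KO library, at least 1.51-fold lower and not tested.

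Of the SLC38 genes whose proteins act at the lysosome, SLC38A7 was at 67.4 ± 8.14 CPM in control and 37.8 ± 2.90 CPM in KO (SD, n = 3), with a log2 fold change of -0.83 (adjusted p = 1.81e-05). SLC38A9, a sensor of lysosomal arginine for mTORC1, was at 19.1 ± 2.62 and 17.2 ± 0.709 CPM (SD, n = 3), with overlapping groups (log2 fold change -0.16, adjusted p = 0.382). SLC38A10, whose role is less well known, was the only tested SLC38 gene with a positive value. It was at 162, 197 and 201 CPM in control and at 280, 292 and 236 CPM in KO, with the groups apart (log2 fold change 0.53, standard error 0.101, adjusted p = 0.000635). The tested genes around SLC38A10 at the end of chromosome 17 had a median of 0.48, close to its own value. SLC38A6 was at 25.7 ± 4.78 and 20.6 ± 3.52 CPM (SD, n = 3; adjusted p = 0.108), and SLC38A11 and SLC38A8 had at most 14 and 4 counts in a library.

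The proton-assisted transporters (SLC36) went in opposite directions, and both passed the adjusted p alone. SLC36A1 (PAT1), which releases small amino acids from the lysosome, was at 83.3 ± 2.75 CPM in control and 50.5 ± 2.27 CPM in KO (SD, n = 3; log2 fold change -0.72, adjusted p = 1.02e-05). SLC36A4 (PAT4) was at 36.2 ± 4.49 CPM in control and 51.7 ± 6.08 CPM in KO (SD, n = 3; log2 fold change 0.51, adjusted p = 0.00254). The groups were apart in both genes, and SLC36A2 and SLC36A3 had 0 counts in each library. In family 43, SLC43A1 (LAT3) and SLC43A2 (LAT4) carry leucine and its kin without sodium. SLC43A1 was at 16.5 ± 1.06 CPM in control and 9.48 ± 0.941 CPM in KO (SD, n = 3; log2 fold change -0.80, adjusted p = 0.000336). SLC43A2 was at 8.72 ± 1.08 CPM in control and 6.49 ± 0.717 CPM in KO (SD, n = 3), with the groups apart, and did not pass the adjusted p (log2 fold change -0.43, standard error 0.174, adjusted p = 0.0628). It did pass the same edgeR test without control replicate 1 (adjusted p = 0.0239) and with upper-quartile normalization (adjusted p = 0.0475). SLC43A3, the carrier of purine bases, was at 69.6 ± 2.87 CPM in control and 99.0 ± 4.15 CPM in KO (SD, n = 3; log2 fold change 0.51, adjusted p = 0.000208).

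Family 6, the sodium- and chloride-dependent carriers best known from neurons, held 1 gene called higher and 1 called lower. SLC6A8 (ENSG00000130821; chromosome X, 153688099 to 153696593), the creatine transporter, was at 24.5, 28.2 and 27.3 CPM in control and at 145, 143 and 137 CPM in KO. The 3 KO libraries were close together and far above the control libraries. SLC6A8 rose by 2.41 on the log2 scale (standard error 0.0930, adjusted p = 5.36e-11), 5.31-fold in mean CPM. The tested genes around it had a median of 0.13, and those of chromosome X a median of 0.32. It shares 22 exon bases with PNCK on the other strand, which had a mean of 4.67 counts in control and 24.7 in KO and was itself called higher. PNCK needed the KO libraries, where it is high, to pass the filter on low counts. SLC6A9 (GlyT1, ENSG00000196517; chromosome 1, 43991500 to 44031467), the glycine transporter of non-neuronal cells, was at 28.7, 41.8 and 34.3 CPM in control and at 6.82, 3.53 and 5.45 CPM in KO. The groups were apart, and SLC6A9 fell by 2.73 on the log2 scale (standard error 0.205, adjusted p = 5.86e-08), 6.63-fold in mean CPM. SLC6A9 shares 404 exon bases with CCDC24 on the other strand, which had a mean of 69.0 counts in control and 65.7 in KO.

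SLC6A6, the taurine transporter, was at 51.2 ± 3.80 CPM in control and 54.1 ± 2.58 CPM in KO (SD, n = 3), with overlapping groups (log2 fold change 0.08, standard error 0.0962, adjusted p = 0.552). SLC6A15 (B0AT2), a carrier of branched-chain amino acids and proline, was at 4.84 ± 0.718 CPM in control and 7.55 ± 0.827 CPM in KO (SD, n = 3; log2 fold change 0.64, adjusted p = 0.0135). It no longer passed the same edgeR test without control replicate 3 (adjusted p = 0.0607) or without KO replicate 2 (adjusted p = 0.0689). The other 15 genes of the family were not tested. SLC6A16, an orphan carrier, had 4, 9 and 12 counts in control and 0 in each KO library, at least 2.89-fold lower. The serotonin transporter SLC6A4 had at most 8 counts in a library and the dopamine transporter SLC6A3 at most 2. SLC6A2, SLC6A11, SLC6A18, SLC6A19 and SLC6A20 had 0 counts in each library, so their transcripts, among them that of the noradrenaline transporter SLC6A2, were not detectable at this depth.

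**Figure D4:**
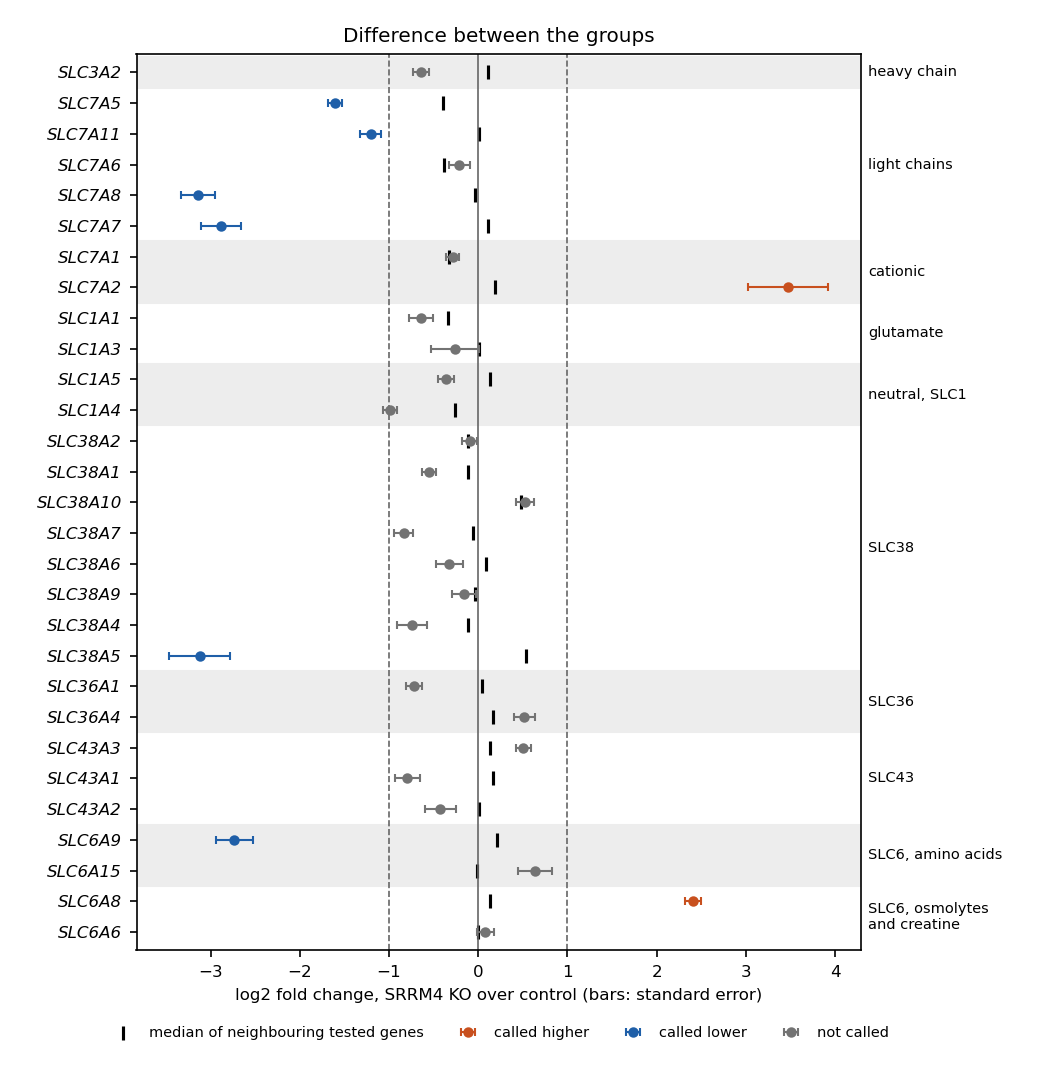
Log2 fold change (SRRM4 KO over control, horizontal axis) of the 29 tested transporter genes by role, with standard errors as bars and the fold threshold as dashed lines. Genes called lower are blue, genes called higher orange, and black ticks give the median of the neighbouring tested genes, which runs from -0.40 at SLC7A5 to 0.53 at SLC38A5.

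ATF4 binds a composite element whose core reads TGATGNAA, MYC and TFEB bind the E-box CACGTG, and NRF2 binds the antioxidant response element, searched here by its core TGACNNNGC. These letters were searched on both strands in the window from 250 bases before to 50 bases after each RefSeq start (GRCh38.p14), in 35116 windows of all genes. Windows were found for 24 of the 29 tested transporter genes, 45 in all, and no match of a motif overlapped a match of another. The called genes SLC7A11 and SLC7A2 had no window, nor had SLC43A3, SLC6A6 and SLC6A15, so none of these was searched for any motif. TGATGNAA was in 6 of the 45 windows (13.3%), where the share of all windows was 3.62%. It lay in windows of SLC1A3, SLC1A4, SLC1A5, SLC3A2, SLC7A1 and SLC38A1, and in none of the 6 called genes with a window. The E-box was in 8 windows (17.8%, beside 7.26% of all windows), those of SLC1A5, SLC7A5, SLC7A7, SLC7A8, SLC36A1, SLC38A5, SLC38A7 and SLC43A1, of which 4 are called genes. TGACNNNGC was in 7 windows (15.6%, beside 13.3%). A match is a description of the letters and not a binding site. Several of these starts lie inside the gene as GENCODE bounds it, past its outermost start, among them those of the TGATGNAA matches in SLC1A4, SLC1A5, SLC3A2 and SLC38A1 and of the E-box matches in SLC1A5, SLC7A7, SLC7A8, SLC36A1 and SLC38A7.

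The following stretches, from 150 bases before to 10 bases after the start, show these letters in abundant transporter genes with lower values in KO, in capitals. In SLC7A5 (chr16:87869498-87869657, minus strand) the capitals mark an E-box 130 bases before the start and TGACGCAGC across the start. In SLC1A5 (chr19:46784805-46784964, minus strand), SLC1A4 (chr2:64989249-64989408, plus strand) and SLC38A1 (chr12:46266507-46266666, minus strand) they mark TGATGNAA, which begins 97, 7 and 4 bases before the start and is read on the other strand in SLC1A4.
SLC7A5: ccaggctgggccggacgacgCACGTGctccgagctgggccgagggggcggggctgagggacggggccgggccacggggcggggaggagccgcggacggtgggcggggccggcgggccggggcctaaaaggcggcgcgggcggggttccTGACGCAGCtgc
SLC1A5: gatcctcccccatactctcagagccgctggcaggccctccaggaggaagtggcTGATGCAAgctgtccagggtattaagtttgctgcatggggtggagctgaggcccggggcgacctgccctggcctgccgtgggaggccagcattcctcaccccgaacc
SLC1A4: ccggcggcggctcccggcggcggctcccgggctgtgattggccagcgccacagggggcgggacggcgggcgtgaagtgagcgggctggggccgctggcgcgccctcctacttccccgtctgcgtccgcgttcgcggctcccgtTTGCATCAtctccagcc
SLC38A1: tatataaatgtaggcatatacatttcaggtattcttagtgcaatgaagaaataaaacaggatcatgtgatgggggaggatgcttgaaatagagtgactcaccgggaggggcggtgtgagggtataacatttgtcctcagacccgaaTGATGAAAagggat

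The other genes of amino acid supply were taken from lists chosen with earlier results of these data known. Their counts called and median log2 fold changes are therefore a description and no independent test. Of all tested genes 5.45% were called higher and 7.14% lower, with a median of -0.01, and 20.7% and 20.9% passed the adjusted p alone. The list of the integrated stress response, the signal that raises ATF4 when amino acids run short, had 24 tested genes, of which 6 were called lower and 0 higher (median -0.47). With the adjusted p alone 15 were lower and 4 higher. The higher ones, named after their values were seen, were ATF3 (log2 fold change 0.52), EIF2AK2 (0.47), EIF2AK3 (0.47) and EIF2S1 (0.40). All of them were under the fold threshold. CHAC1, which degrades glutathione, was at 29.3, 36.7 and 39.8 CPM in the control libraries and at 8.08, 4.97 and 7.95 CPM in the KO libraries, and fell by 2.34 (log2, adjusted p = 8.02e-08). JDP2 fell by 1.56 and VLDLR fell by 1.25. ATF4 itself was at 322, 345 and 386 CPM in control and at 220, 200 and 218 CPM in KO. These groups did not overlap, and its log2 fold change of -0.72 (adjusted p = 6.83e-06) was under the fold threshold. ASNS, the asparagine synthetase and a much used ATF4 target, was at 3.44 ± 0.907 and 0.971 ± 0.487 CPM (SD, n = 3) and fell by 1.82 (adjusted p = 0.00137); it was named after its values were seen.

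The list of serine, glycine, proline and one-carbon synthesis had 16 tested genes, of which 4 were called lower and 0 higher (median -0.57). With the adjusted p alone 9 were lower and 2 higher. PSAT1, an enzyme of serine synthesis, was at 534 ± 24.3 CPM in control and 147 ± 9.21 CPM in KO (SD, n = 3) and fell by 1.86 (log2, adjusted p = 1.50e-10). The mitochondrial folate enzymes ALDH1L2 and MTHFD2 fell by 1.82 and 1.66. PHGDH, the entry enzyme of serine synthesis, had a value of -0.98 (adjusted p = 1.47e-07), under the fold threshold as was that of SLC1A4, the serine carrier. Of the 20 cytosolic aminoacyl-tRNA synthetases, which load amino acids onto tRNA, 3 were called lower and 0 higher (median -0.50), and with the adjusted p alone 14 were lower and 3 higher. GARS fell by 1.37, WARS fell by 1.35 and IARS fell by 1.07, and EPRS (-0.72) and SARS (-0.48) were under the fold threshold.

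The remaining lists had medians nearer to that of all genes or above it. The genes of glutamine, glutamate and branched-chain use had a median of -0.01 over 14 tested genes, with 1 called lower and, by the adjusted p alone, 4 lower and 1 higher. This was GPT2, a mitochondrial alanine aminotransferase, which fell by 1.07 (adjusted p = 2.39e-07). BCAT1, a cytosolic aminotransferase of branched-chain amino acids, had a value of -0.48 (adjusted p = 0.000648). The genes of mTORC1 and amino acid sensing had a median of -0.07 over 28 tested genes. By the adjusted p alone 7 were lower (25.0%) and 3 higher, and 1 was called lower (3.57%, under the share over all tested genes). This was DEPTOR, an inhibitor of mTOR, at 6.29 ± 1.42 CPM in control and 0.452 ± 0.0931 CPM in KO (SD, n = 3; log2 fold change -3.78, adjusted p = 2.17e-07). MTOR itself had a value of 0.11 and did not pass (adjusted p = 0.321). The amino acid carriers of other families, most of them in mitochondria and lysosomes, had a median of 0.34 over 17 tested genes, with 7 higher and 0 lower by the adjusted p alone. Of these 1 was called, SLC16A10 (TAT1), a carrier of aromatic amino acids, whose libraries held 8, 9 and 12 counts in control and 30, 32 and 70 in KO (log2 fold change 2.12, adjusted p = 0.00336). Both DEPTOR and SLC16A10 fell under the count limit for named genes and are given because they were the only calls of their lists. SLC16A10 needed the KO libraries, where it is high, to pass the filter on low counts, and DEPTOR, with 8, 11 and 12 counts in KO, needed the control libraries to pass. In the list of partners and regulators (8 tested genes, median 0.11) 1 gene was called higher, and by the adjusted p alone 2 were higher and 1 lower. This was CD44, an adhesion receptor that can bind the xCT protein, at 147 ± 4.09 CPM in control and 386 ± 8.69 CPM in KO (SD, n = 3), which rose by 1.39 (log2, adjusted p = 1.59e-09). BHLHE40 had a value of 0.82 (adjusted p = 1.72e-06) and BSG one of 0.24 (adjusted p = 0.0514).

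**Figure D5:**
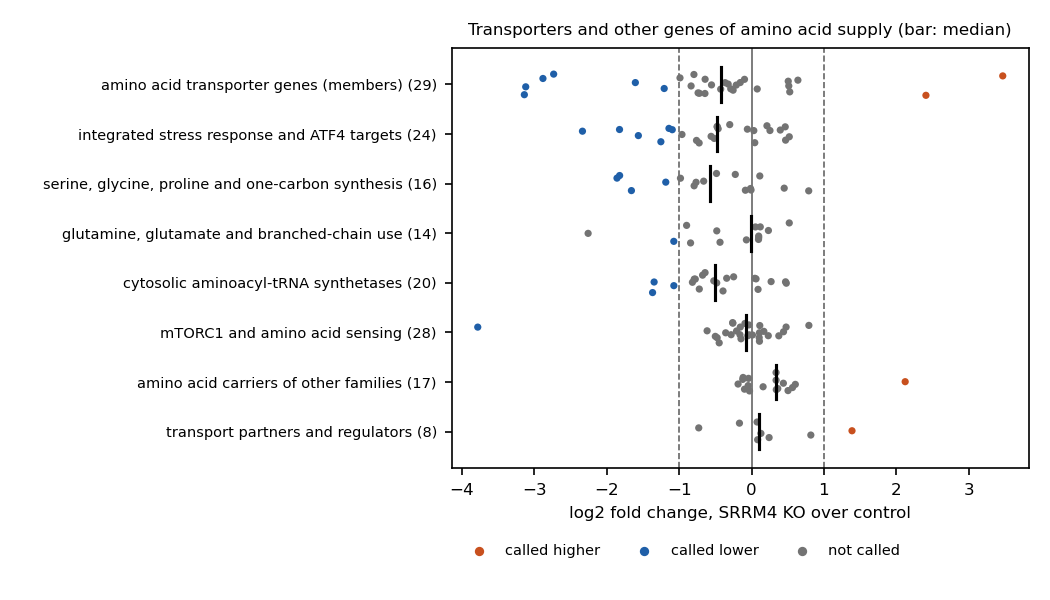
Log2 fold change (SRRM4 KO over control) of each tested gene in the transporter families and in 7 lists of amino acid supply, with called genes coloured and the median of each list as a black bar. Medians run from -0.57 for serine, glycine, proline and one-carbon synthesis to 0.34 for the carriers of other families; the grey point near -2.26 is PRODH, which did not pass the adjusted p (0.0862).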

How the data were processed

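The deposited files hold whole-number counts of reads per gene, which the authors did not normalize, from non-stranded mRNA-seq on an Illumina NovaSeq. The submitters' processing notes name HISAT2 2.0.5, featureCounts 1.5.0-p3 and DESeq2. The counting options and the genome build are not given in the sources used here, so genes with near-identical copies or shared exons carry that uncertainty. All 58735 gene IDs were found in GENCODE release 29 (GRCh38), and the 59 transporter genes had identical coordinates there. Each column matched 1 sample by its name.

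edgeR 4.0.16 (R 4.3.3) fitted the counts after TMM scaling and filterByExpr, by its quasi-likelihood test with prior count 0.125, and p-values were adjusted by Benjamini-Hochberg over 15341 genes. The standard error comes from the log2 fold change and F. Each group has 3 libraries, and no pair agreed within sampling noise (chi-square per degree of freedom at least 4.93). The procedure was tested on simulated counts. The median around a gene takes the 10 nearest tested genes on either side. Full values were planned for each called gene, for SLC3A2, SLC7A5, SLC7A11, SLC7A1, SLC1A5, SLC1A4, SLC38A1, SLC38A2 and SLC43A2, and for the 5 genes of highest level per length. In other lists at most 3 called genes per direction whose mean count was 100 or more, and 2 abundant uncalled genes were to be named. Promoters were to be printed only for called genes with TGATGNAA, and none had it, so those shown were chosen after the values were seen. The planned protein alignments were not made. A few genes of the lists are not reported here by name. The members and lists were chosen with earlier results of these data known. The alternatives were DESeq2 1.42.0, its size factors, upper-quartile normalization, no filter, 10 counts in every library, a replicate block, each library left out, glmTreat, no fold threshold, protein-coding genes only and chromosome centring.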

Additional observations from a re-analysis of the deposited data

How the results depend on the processing

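Under the 16 alternatives both SLC6A8 and SLC7A2 stayed called higher, except that with at least 10 counts in every library SLC7A2 was not tested and the count was 1. With the adjusted p alone, 6 genes were higher and 16 lower. With each library left out in turn 2 genes were higher, and between 6 and 8 were lower. The 6 genes called lower kept that call in each alternative but 2: SLC7A11 under the test against the fold threshold, and SLC38A5 with at least 10 counts in every library, where it was not tested. Where the fold threshold was kept, the genes gained were SLC1A4, SLC7A14 and SLC6A16, of which SLC7A14 and SLC6A16 have 0 counts in each KO library. DESeq2 called 2 higher and 8 lower. The replicate numbers are not stated to pair the libraries, and same-numbered libraries did not deviate together (correlations of -0.06, 0.09 and -0.06). With the replicate block 2 genes were called higher and 6 lower, and no call changed. None of the scalings moved the median of all tested genes beyond -0.04. Subtracting the chromosome median turned the sign of 2 uncalled genes, SLC6A6 and SLC7A6, and changed no call. The 30 untested genes did not have enough counts for the test, and of these 19 had some counts and 11 had none.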

Other observations

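Several transporter genes have pseudogene copies or antisense genes, whose reads could be exchanged with those of the gene itself. SLC7A5P1, a copy of SLC7A5 on chromosome 16, had 7, 22 and 13 counts in control and 0, 10 and 13 in KO (log2 fold change -0.93, adjusted p = 0.377 by edgeR over all tested genes), and SLC7A5P2 had 0 in each library. SLC6A10P, a copy of SLC6A8, had 0 counts in each control library and 1 in each KO library, against 532 to 610 and 3014 to 3494 for SLC6A8. SLC7A11-AS1, antisense to SLC7A11, had at most 8 counts in a library, against at least 3007 for SLC7A11. The untested heavy chain SLC3A1 shares 1923 exon bases with PREPL on the other strand, which had a mean of 2539 counts in control and 1611 in KO, and SLC7A10 shares 204 with LRP3.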
